A study of Mus musculus with 2 samples.

Results

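The 10 genes described here encode the kinases, adaptors and phosphatases that act directly beneath the B cell antigen receptor: Lyn, Blk, Fyn, Syk, Btk, Blnk, Plcg2, Pik3ap1, Ptpn6 and Inpp5d. They were taken by symbol from a deposited table of 41214 genes, in which each of the 10 symbols had 1 row. The table is named after HepG2, a human liver line, although its gene identifiers are of mouse and its columns carry the titles of both libraries. RNA had been sequenced from spleen cells of C57BL/6 mice given sheep red blood cells intravenously. The cells were sorted on day 10 as germinal centre B cells, by the surface markers GL7, Fas and B220 and without the plasma cell marker CD138. The 2 libraries were labelled Cbl-/-Cblb-/- (called mutant-labelled from here on) and wild type (wild-type-labelled), 1 each, so nothing here has a replicate check and no test was possible. The labels do not say how the Cbl and Cblb alleles were made, in which cells they were deleted or how many mice gave each library. The question addressed is how expression in germinal centre B cells differs when Cbl and Cblb, whose proteins are ubiquitin ligases that dampen signals from the antigen receptor, are both missing.

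When antigen engages the receptor, Src family kinases such as Lyn phosphorylate the tails of the CD79 chains, and Syk binds there and becomes active. Syk phosphorylates the adaptor encoded by Blnk, which brings Btk together with the phospholipase encoded by Plcg2, whose products release calcium and activate protein kinase C. The adaptor encoded by Pik3ap1, known as BCAP, links the receptor complex to PI3 kinase. Ptpn6 encodes SHP-1, a tyrosine phosphatase, and Inpp5d encodes SHIP-1, a phosphatase of the lipid that PI3 kinase makes. Both are recruited to inhibitory receptors phosphorylated by Lyn. Germinal centre B cells are known for restrained receptor signalling with high phosphatase activity.

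Reads assigned to genes numbered 38223328 in the mutant-labelled library and 26749540 in the wild-type-labelled library. Of the genes in the table, 10443 had at least 100 normalized reads in 1 library or both (the floor), among them all 10 genes described here. Neither targeted gene was lower in the mutant-labelled library: Cbl had 7.16 FPKM there against 1.02 in the wild-type-labelled library, and Cblb had 13.8 against 4.87. The values sum reads over whole genes, and the deleted exons were not given, so directions here are between labelled libraries and not between genotypes, and whether the labels or columns were exchanged was not tested. The 8 B cell markers had between 6296 and 77025 reads in the mutant-labelled library and between 4209 and 124201 in the wild-type-labelled library. Their summed FPKM was 2566 in the mutant-labelled library and 7379 in the wild-type-labelled library, of which Cd79b gave 693 and 3821. Members went both ways, with log2 ratios of mutant-labelled over wild-type-labelled of -2.12 for Pax5 and -1.92 for Cd37. Those of Ms4a1 (0.46) and Cd22 (0.45) were above 0. Of 10 germinal centre B cell markers, 10 were over the floor, with summed FPKM of 1037 in the mutant-labelled library and 1488 in the wild-type-labelled library. They too went both ways, among them Nuggc (log2 ratio -1.38) and Mybl1 (1.62). Ratios between the libraries went with gene length, with a median log2 ratio of -1.68 among the shortest eighth of genes and 1.35 among the longest eighth. Library scaling also matters, since scaling to total reads adds 0.52 to each log2 ratio.

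Lyn, the kinase that both starts the signal and arms the inhibitory receptors, had 62.3 FPKM in the mutant-labelled library and 40.1 FPKM in the wild-type-labelled library. FPKM is reads scaled to gene length and library size, so it allows levels of different genes to be compared. The underlying reads were 11793 in the mutant-labelled library and 3712 in the wild-type-labelled library, and after the authors' normalization Lyn was 1.55-fold higher in the mutant-labelled library (1.5 to 1.61). All ranges of folds are exact 95% intervals and cover counting error only, and reads carry no molecular identifiers. Blk, a Src family kinase largely restricted to B cells, went the other way, with 113 FPKM in the mutant-labelled library and 182 FPKM in the wild-type-labelled library. Its normalized reads were 1.61-fold higher in the wild-type-labelled library (1.57 to 1.66). Fyn, a Src family kinase of many cell types, was the least abundant of these 3 kinases, with 17.1 FPKM in the mutant-labelled library and 10.7 in the wild-type-labelled library, a 1.60-fold higher value (1.49 to 1.71).

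Syk had 38108 reads in the mutant-labelled library and 11013 in the wild-type-labelled library, the most reads of the 10 genes in the first. Per length this was 87.6 against 51.8 FPKM, and the normalized value was 1.69-fold higher (1.66 to 1.73). Btk, the Tec family kinase mutated in X-linked agammaglobulinaemia, had 67.9 FPKM in the mutant-labelled library and 41.8 in the wild-type-labelled library, 1.62-fold higher (1.56 to 1.69). The Btk to Syk ratio of FPKM was 0.776 (0.759 to 0.793) in the mutant-labelled library and 0.808 (0.776 to 0.841) in the wild-type-labelled library, before any adjustment for their unlike lengths.

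Among the adaptors and their effector, Blnk had 66.0 FPKM in the mutant-labelled library and 89.6 in the wild-type-labelled library. It was 1.36-fold higher in the wild-type-labelled library (1.33 to 1.39), but scaling to total reads turned its log2 ratio to 0.077. Plcg2, the phospholipase, had 150 FPKM in the mutant-labelled library and 108 in the wild-type-labelled library, a 1.4-fold higher value (1.37 to 1.43). With the authors' normalization Pik3ap1 alone differed by more than 2-fold, with 13671 reads in the mutant-labelled library and 574 in the wild-type-labelled library. Per length this was 112 FPKM in the mutant-labelled library and 9.66 in the wild-type-labelled library, an 11.6-fold higher value (10.7 to 12.7) in the mutant-labelled library.

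The phosphatase gene Ptpn6 had the highest deposited FPKM of the 10 genes in both libraries, 229 in the mutant-labelled library and 194 in the wild-type-labelled library. Its normalized reads were 1.18-fold higher (1.16 to 1.21) in the mutant-labelled library. Inpp5d had 53.3 FPKM in the mutant-labelled library and 28.4 in the wild-type-labelled library, 1.88-fold higher (1.82 to 1.94). After Pik3ap1 this was the next largest ratio of the set.

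**Figure D1:**
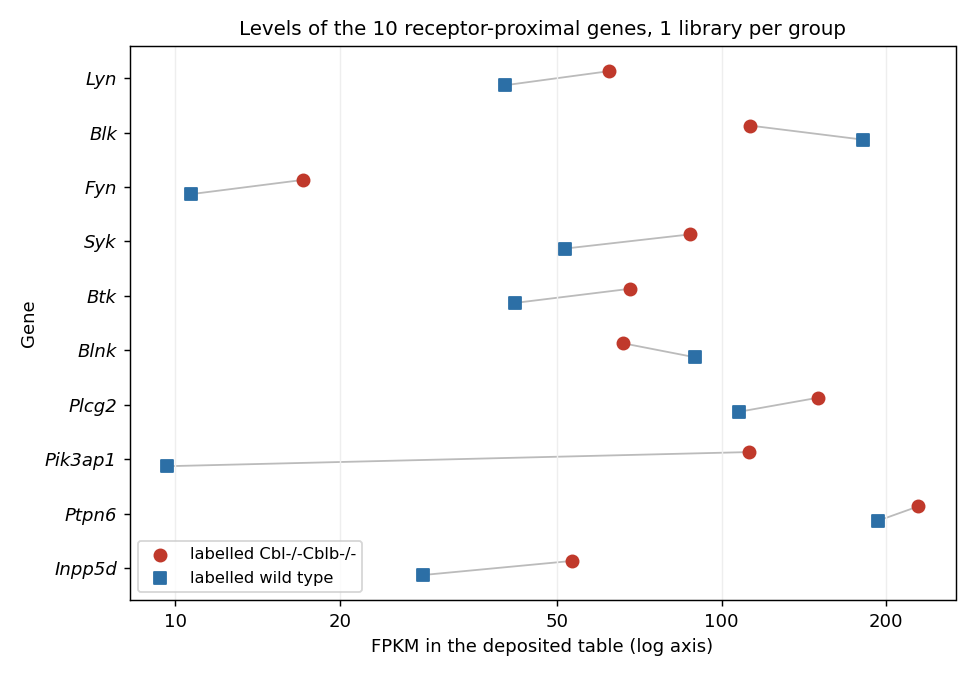
Each row is a gene and the horizontal log axis gives its FPKM in the deposited table, with a circle for the mutant-labelled library and a square for the wild-type-labelled library, 1 library each and no error bars. Pik3ap1 stands at 112 FPKM in the mutant-labelled library and 9.66 in the wild-type-labelled library, the other 9 genes differ by less than 2-fold between the libraries, and only Blk and Blnk have the circle on the left.

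Of the 10 genes, 1 was at least 2-fold higher in the mutant-labelled library, against 27.8% of all 10443 genes over the floor, and 0 were at least 2-fold lower, against 23.3%. The log2 ratios of 8 genes were above 0 and those of 2 below. The median of the 10 was 0.65, beside 0.15 over all genes. Of all genes, 49.0% lay within 2-fold, and 9 of these 10 did. With the libraries scaled to total reads, 7 of the 10 stood 2-fold or more higher, against 41.2% of all genes, and 0 were at least 2-fold lower, against 14.1%. In that setting Inpp5d was 2.69-fold, Syk 2.42-fold, Btk 2.33-fold, Fyn 2.29-fold, Lyn 2.22-fold and Plcg2 2.0-fold higher, beside Pik3ap1. The authors' deposited table, made from the same single libraries, gives Pik3ap1 a log2 fold change of 2.40 with a standard error of 1.05, an unadjusted p of 0.0221 and an adjusted p of 0.944. No other gene of the 10 had an unadjusted p under 0.448 in the authors' deposited table.

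Gene length bears on several of these ratios, since the 10 genes range from 2475 bases (Blk) to 9362 (Syk) in the deposited table. Among 1306 genes of 7609 to 84395 bases, the group that holds Syk, the median log2 ratio was 1.35, whereas Syk stood at 0.76. Inpp5d (7602 bases, log2 ratio 0.91) and Blnk (5991 bases, -0.44) fall among genes of 5681 to 7608 bases with a median of 0.87. Blk (-0.69), Ptpn6 (0.24) and Pik3ap1 (3.54) fall among genes of 2189 to 2894 bases with a median of -0.33. There, 13.4% were 2-fold or more higher. Pik3ap1 is placed there by its deposited 2615 bases, whereas a newer annotation gives it 5572 exon bases. Among genes with deposited lengths of 4511 to 5679 bases, 35.2% were 2-fold or more higher and the median was 0.60. A fit of the log2 ratio on log2 length and its square took up 23.7% of the variance over all genes.

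With the fitted part removed, the ratio of Pik3ap1 was 3.78 and that of Btk 0.77. Lyn (0.43), Ptpn6 (0.42), Fyn (0.39) and Plcg2 (0.22) remained above 0, Blk remained below (-0.40), and Inpp5d (-0.076) and Syk (-0.52) turned negative. Blnk moved to -1.11 and was then the 1 gene at least 2-fold lower, against 21.3% of all genes, while Pik3ap1 was the 1 gene at least 2-fold higher, against 18.1%. The length used changes this. The deposited length of Blnk covers all annotated exons, 2.86 times its longest coding transcript of 2097 bases, and with longest coding transcripts in the fit Blnk stood at -0.13. In that fit 1 gene, Pik3ap1 (2.76), was at least 2-fold higher, against 14.5% of 9660 genes, and 0 were at least 2-fold lower, against 15.5%.

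**Figure D2:**
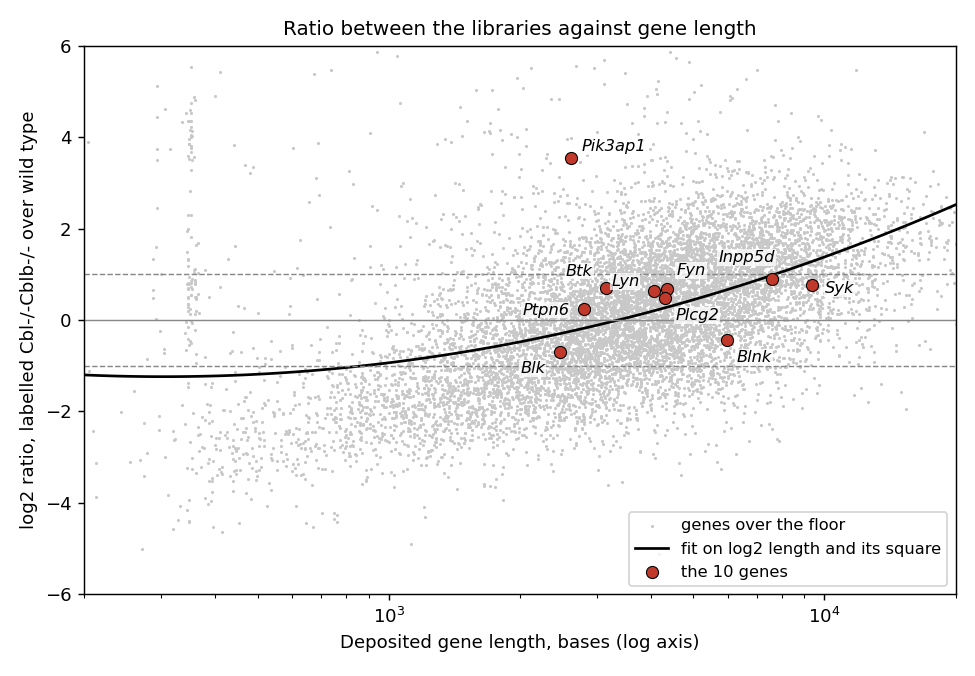
The horizontal log axis gives the deposited gene length in bases and the vertical axis the log2 ratio of the mutant-labelled library over the wild-type-labelled library, with a grey point for each gene over the floor except 95 that lie outside the axes, a black line for the fit on length, dashed lines at 2-fold and red points for the 10 genes. Pik3ap1 lies at 3.54 above a fit that is negative at its length, and Blnk lies at -0.44 below a fit that is positive at its length.

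Pik3ap1 had a further feature in the annotation. The deposited table gives it 2615 bases, whereas GENCODE M21 lists 5572 exon bases and 1 coding transcript of 4482 bases, so the newer model is 2.13 times as long. For the other 9 genes the exon length of the newer annotation was 1.0 to 1.09 times the deposited one. Reads outside the shorter model would not have been counted, and whether any were left out was not tested. With the same counted reads divided by 4482 bases, Pik3ap1 would stand at 65.6 FPKM in the mutant-labelled library and 5.64 in the wild-type-labelled library. Any reads left out would raise these values, so they are not levels measured on the longer model. For the reads counted, the ratio between the libraries does not depend on the length used. Among all genes over the floor, 180 had a higher log2 ratio than Pik3ap1, and 159 had one with the fit on deposited length removed. That fit takes 2615 bases for Pik3ap1 and left it at 3.78. The fits on coding transcripts and exon lengths of GENCODE M21 left it at 2.76 and 3.17.

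Pik3ap1 and Blnk, the genes with opposite directions among the adaptors, are neighbours on the minus strand of chromosome 19 in GRCm38. Blnk (ENSMUSG00000061132) spans 40928927 to 40994535 and Pik3ap1 (ENSMUSG00000025017) 41272377 to 41385102, with 278 kb between them. Of 4 coding genes lying between, Tm9sf3 alone was over the floor, with a log2 ratio of 0.94. Beyond Pik3ap1, Lcor (3.08) and Gm340 (3.38) were also higher in the mutant-labelled library, from 826 and 481 reads there against 47 and 22 in the wild-type-labelled library, and Slit1 stood at -0.77. On the side of Blnk, Zfp518a (2.73), Ccnj (1.97) and Entpd1 (0.72) were higher too, so raised neighbours lay on both sides. Over all genes, 27.8% were at least 2-fold higher. That share was 62.5% in the length group of Lcor, 45.4% in that of Zfp518a and 24.8% in that of Gm340 and Ccnj. Entpd1 and Tm9sf3 stood near the medians of their length groups, 0.60 and 0.87. These neighbours were chosen after their values were seen.

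The RefSeq promoters of the 2 genes (GRCm38.p6, 250 bases before the start and 50 after) are shown because these adaptors had the most unlike ratios of the set apart from Blk, whose promoter was not in the table used here. They are written 5′ to 3′ on the minus strand, at chr19:41385053-41385352 for Pik3ap1 and chr19:40994172-40994471 for Blnk. Capitals mark matches to 1 of 2 motifs searched on both strands, which do not overlap there: the octamer ATTTGCAT, bound by Oct factors, and GAGGAAG, of the type bound by PU.1.
Pik3ap1: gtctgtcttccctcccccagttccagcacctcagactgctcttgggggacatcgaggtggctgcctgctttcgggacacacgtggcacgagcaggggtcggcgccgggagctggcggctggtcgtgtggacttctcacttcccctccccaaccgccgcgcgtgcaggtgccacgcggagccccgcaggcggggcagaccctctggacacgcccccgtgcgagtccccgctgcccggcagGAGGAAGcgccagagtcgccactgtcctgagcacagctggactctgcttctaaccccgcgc
Blnk: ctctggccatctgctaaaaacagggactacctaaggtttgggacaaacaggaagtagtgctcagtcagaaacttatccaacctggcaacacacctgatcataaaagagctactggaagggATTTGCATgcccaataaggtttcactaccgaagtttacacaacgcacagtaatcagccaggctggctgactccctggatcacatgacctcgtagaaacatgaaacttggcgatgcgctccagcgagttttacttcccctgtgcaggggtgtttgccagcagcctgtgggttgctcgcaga
The promoter of Pik3ap1 holds GAGGAAG, starting at position -11 from the start, as do 13.6% of 32851 mouse promoters of the same length on either strand. It is rich in G and C (69.7%) with 26 CG pairs. The promoter of Blnk holds the octamer, starting at -130, which 1.74% of promoters contain, and has 50% G and C with 7 CG pairs. All of this stretch lies inside the annotated span of Blnk, which reaches 40994535 on the minus strand. Its positions are counted from the RefSeq start used here, and the annotated gene begins further upstream. Over the 9 promoters listed for 8 of the 10 genes, GAGGAAG or its reverse complement was also present in those of Inpp5d (at -20) and Btk (at 9). A match is a description of letters and shows no binding.

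Levels of the 10 genes spanned 13.4-fold in the mutant-labelled library and 20-fold in the wild-type-labelled library, in deposited FPKM. In the mutant-labelled library the order ran Ptpn6, Plcg2, Blk, Pik3ap1, Syk, Btk, Blnk, Lyn, Inpp5d and Fyn, where Blk and Pik3ap1 did not differ beyond counting error (ratio 1.0, 0.978 to 1.03). In the wild-type-labelled library it ran Ptpn6, Blk, Plcg2, Blnk, Syk, Btk, Lyn, Inpp5d, Fyn and Pik3ap1. There Btk and Lyn did not differ beyond counting error (1.04, 0.994 to 1.09), nor did Fyn and Pik3ap1 (1.11, 1.0 to 1.23). Of 45 pairs, 9 stood in a different order in the 2 libraries, and 6 of the 9 included Pik3ap1.

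Those orders depend on the length used. Per longest coding transcript, Blnk was at 188 FPKM in the mutant-labelled library, second to Ptpn6 at 278, and at 256 in the wild-type-labelled library, above Ptpn6 at 235. Pik3ap1 was then the ninth in the mutant-labelled library and the lowest in the wild-type-labelled library. The reads stayed those counted on deposited lengths, which are 2.86 times the longest coding transcript for Blnk and 0.583 times for Pik3ap1. Values per coding transcript can therefore be too high for Blnk and too low for Pik3ap1. Against all genes over the floor, the 10 genes were abundant, with a median percentile of deposited FPKM of 94.1 in the mutant-labelled library and 84.2 in the wild-type-labelled library. Pik3ap1 was at percentile 96.4 in the mutant-labelled library and 54.6 in the wild-type-labelled library, and Fyn at 68.8 in the mutant-labelled library and 56.7 in the wild-type-labelled library.

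The mix of Src family kinases within a library does not depend on the scaling between libraries. Over the family, summed FPKM was 249.77 in the mutant-labelled library and 299.97 in the wild-type-labelled library, but unlike the mix this sum depends on scaling, and with total reads its ratio turned to 1.19. Blk made up 45.1% of the sum in the mutant-labelled library and 60.6% in the wild-type-labelled library. Lyn made up 24.9% in the mutant-labelled library and 13.4% in the wild-type-labelled library. Fyn made up 6.85% in the mutant-labelled library and 3.57% in the wild-type-labelled library. The Lyn to Blk ratio of FPKM was 0.553 (0.539 to 0.567) in the mutant-labelled library and 0.221 (0.213 to 0.229) in the wild-type-labelled library. Lyn is the longer gene, 4073 bases against 2475, and genes of its length had higher ratios between these libraries.

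The T cell kinase gene Lck was the third most abundant family member in the mutant-labelled library at 45.2 FPKM (18.1% of the sum), and the second in the wild-type-labelled library at 58.1 FPKM (19.4%). Of 10 T cell markers, Lat alone was over the floor. Cd3e had 5 reads in the mutant-labelled library and 0 in the wild-type-labelled library, and Zap70, the T cell relative of Syk, had 35 in the mutant-labelled library and 14 in the wild-type-labelled library. Over the 10 markers summed FPKM was 2.93 in the mutant-labelled library and 10.0 in the wild-type-labelled library, of which Lat alone gave 1.84 in the mutant-labelled library and 7.78 in the wild-type-labelled library. Fgr, a Src family kinase of myeloid cells and B cells, had 6.64 FPKM in the mutant-labelled library and 4.54 in the wild-type-labelled library. The widely expressed Yes1 had 1.25 FPKM in the mutant-labelled library and 0.382 in the wild-type-labelled library. Src itself had 9 reads in the mutant-labelled library and 3 in the wild-type-labelled library, and Frk had 0 in both, which allows up to 3 reads in each.

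**Figure D3:**
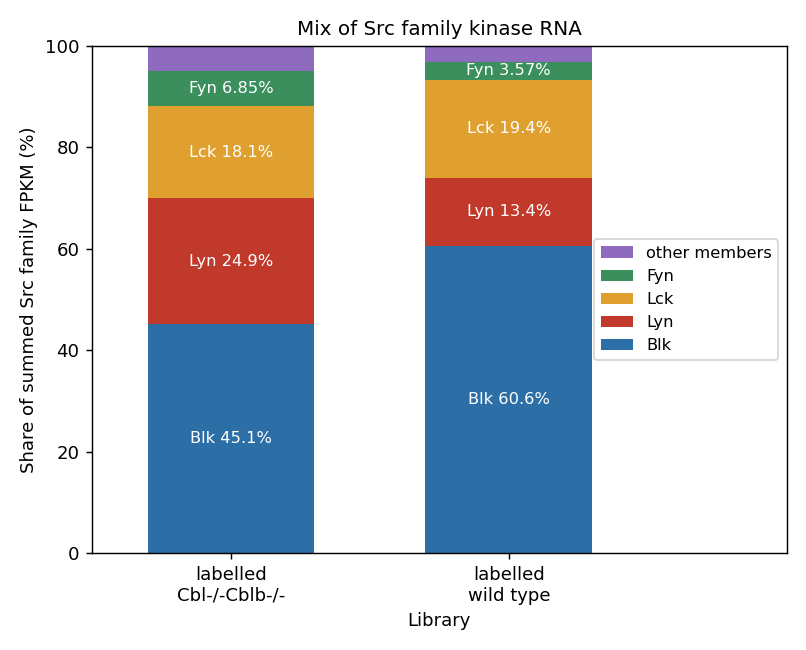
Stacked bars give the shares of Blk, Lyn, Lck, Fyn and the remaining Src family genes together in the summed FPKM of the family, in percent, with the mutant-labelled library on the left and the wild-type-labelled library on the right. Blk takes 45.1% in the mutant-labelled library and 60.6% in the wild-type-labelled library, and Lyn 24.9% in the mutant-labelled library and 13.4% in the wild-type-labelled library. The bars have no error bars because each group has 1 library.

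Several of the 10 genes are also expressed by macrophages, among them Lyn, Syk, Btk, Plcg2, Pik3ap1, Ptpn6 and Inpp5d. Of 10 macrophage markers 9 were in the table, with summed FPKM of 22.5 in the mutant-labelled library and 41.8 in the wild-type-labelled library, and none was at 0. Its members went both ways. Cd68 had 7.74 FPKM in the mutant-labelled library and 18.5 in the wild-type-labelled library, whereas Csf1r had 2.21 in the mutant-labelled library and 1.58 in the wild-type-labelled library. Lyz2 had 137 reads in the mutant-labelled library and 26 in the wild-type-labelled library, and Mertk 79 in the mutant-labelled library and 4 in the wild-type-labelled library. Neutrophil, natural killer, erythroid and plasma cell markers summed to 0.254, 3.14, 2.44 and 340.3 FPKM in the mutant-labelled library. The same 4 lists summed to 0.206, 2.42, 29.7 and 665.6 FPKM in the wild-type-labelled library, and the neutrophil genes Ly6g, Camp, Ltf and Retnlg were at 0 in both. Mzb1 gave 292 FPKM of the plasma cell sum in the mutant-labelled library and 622 in the wild-type-labelled library, while Prdm1 had 1.37 in the mutant-labelled library and 0.641 in the wild-type-labelled library. Hbb-bt gave 1.35 FPKM of the erythroid sum in the mutant-labelled library and 25.99 in the wild-type-labelled library. The part of these cells in any ratio was not tested. In bulk RNA, fewer cells of a type and less RNA per cell cannot be told apart.

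Each of 7 genes was next set against a related gene within the same library, chosen by sequence family or known role after their values had been seen. Ptpn6 exceeded Ptpn11, which encodes the phosphatase SHP-2, 15.6-fold (15.1 to 16.0) in FPKM in the mutant-labelled library and 54.9-fold (50.6 to 59.7) in the wild-type-labelled library. Inpp5d exceeded Inppl1, which encodes SHIP-2, 3.78-fold (3.64 to 3.92) in the mutant-labelled library and 9.36-fold (8.39 to 10.5) in the wild-type-labelled library. Both phosphatases of haematopoietic cells therefore outweighed their widely expressed relatives in both libraries, by a smaller factor in the mutant-labelled library. Ptpn11 (7492 bases) is longer than Ptpn6 (2802 bases), whereas Inppl1 (4981 bases) is shorter than Inpp5d (7602 bases).

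Plcg2 exceeded Plcg1 39.9-fold (37.8 to 42.2) in the mutant-labelled library and 34.7-fold (31.8 to 37.8) in the wild-type-labelled library. Btk exceeded its relative Tec 1.73-fold (1.68 to 1.79) in the mutant-labelled library and 2.85-fold (2.66 to 3.05) in the wild-type-labelled library. Blnk exceeded Lcp2, the related adaptor gene of T cells and myeloid cells, 4.99-fold (4.79 to 5.2) in the mutant-labelled library and 9.34-fold (8.75 to 9.98) in the wild-type-labelled library. Syk exceeded Zap70 by 348-fold (250 to 499) in the mutant-labelled library and 251-fold (150 to 460) in the wild-type-labelled library, intervals that overlap widely.

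The pair of Pik3ap1 and Bank1, which encode related adaptors of B cells, stood in opposite orders per deposited length. The ratio of Pik3ap1 to Bank1 was 1.69 (1.65 to 1.74) in the mutant-labelled library and 0.404 (0.367 to 0.444) in the wild-type-labelled library, although Bank1 itself was 2.78-fold higher in the mutant-labelled library. With the same reads, 4482 bases for Pik3ap1 and the deposited length kept for Bank1, the ratio was 0.987 in the mutant-labelled library. It was then 0.236 in the wild-type-labelled library, so below 1 in both. Any Pik3ap1 reads left out by the deposited model would raise both, so the order on the longer model was not measured. Pik3ap1 over Syk was 1.28 (1.26 to 1.31) in the mutant-labelled library and 0.187 (0.171 to 0.203) in the wild-type-labelled library. With 4482 bases for Pik3ap1 and the deposited 9362 kept for Syk, it was 0.749 in the mutant-labelled library and 0.109 in the wild-type-labelled library. Per longest coding transcript of both, Pik3ap1 had 65.6 FPKM and Syk 153 in the mutant-labelled library. In the wild-type-labelled library Pik3ap1 then had 5.64 and Syk 90.4. The reads were in each case those counted on the deposited lengths, 2615 bases for Pik3ap1 and 9362 for Syk, so reads and lengths do not match.

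**Figure D4:**
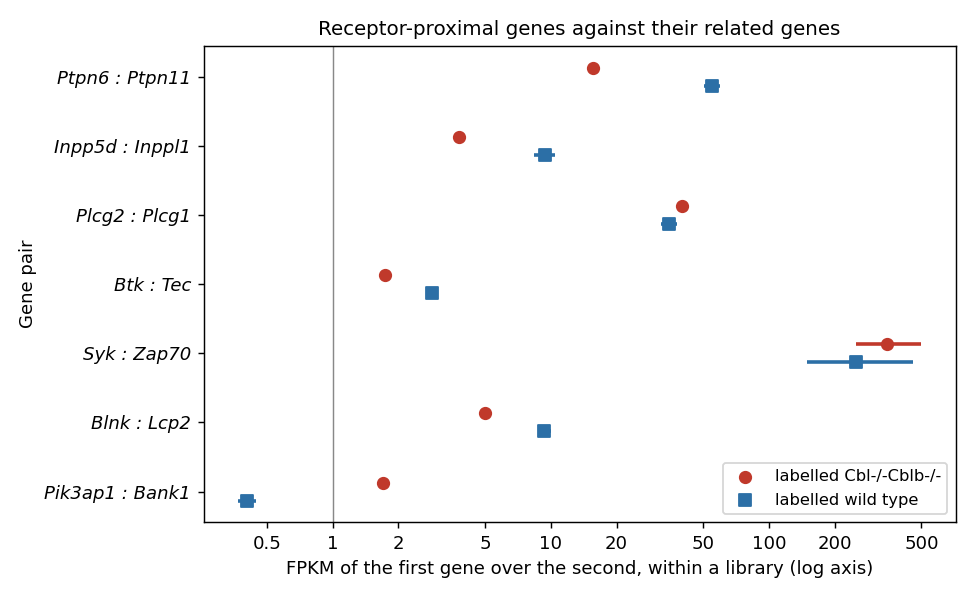
For each pair of genes the horizontal log axis gives the FPKM of the first over that of the second within 1 library, with a circle for the mutant-labelled library, a square for the wild-type-labelled library and lines for 95% counting intervals. The vertical line marks equal levels, on either side of which the pair of Pik3ap1 and Bank1 lies, at 1.69 in the mutant-labelled library and 0.404 in the wild-type-labelled library per deposited length, while Ptpn6 over Ptpn11 is 15.6 in the mutant-labelled library and 54.9 in the wild-type-labelled library.

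Around these 10 genes, 102 other genes of the pathway were grouped in 8 lists, of which 88 genes were over the floor. There 38 (43.2%) were at least 2-fold higher in the mutant-labelled library, against 27.8% of all genes, and 9 (10.2%) at least 2-fold lower, against 23.3%, with a median log2 ratio of 0.75. Scaling to total reads gave 50 higher genes and 5 lower ones, against 41.2% and 14.1% of all genes. Removing the length fit left 23 and 9 such genes at a median of 0.17, against 18.1% and 21.3%. The counts of each list below use the deposited normalization and stand against the same 27.8% higher and 23.3% lower among all genes. Among the other Src, Syk and Tec family kinases, 5 of 11 were over the floor and 2 of the 5, Yes1 (1.69) and Tec (1.42), were at least 2-fold higher. Among 10 regulators of Src family kinases, 4 were higher and 2 lower. Pag1, the membrane adaptor that recruits the inhibitory kinase Csk, was 6.02-fold higher, and Ptprc, which encodes the activating phosphatase CD45, 5.12-fold higher. Ptprc is a gene of 17763 bases, and its log2 ratio with the length fit removed was 0.042. Ptpn18 was at -2.64 despite a length of 7871 bases. Csk had 245 FPKM in the mutant-labelled library and 379 in the wild-type-labelled library, and its ratio to Lyn was 3.94 (3.85 to 4.02) in the mutant-labelled library and 9.43 (9.11 to 9.77) in the wild-type-labelled library.

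Other SH2 and lipid phosphatases had 7 of 8 genes at least 2-fold higher in the mutant-labelled library and 0 lower (87.5% and 0%), with a median of 2.04. These are long genes, with a median of 7675 bases, and among all genes of 7609 bases or more 62.5% were higher. After the length fit was removed 3 of the 8 were higher. Ocrl (2.39), Inppl1 (2.22) and Inpp4b (2.15) had the largest ratios. Inhibitory receptors had 2 of 9 higher, Ceacam1 (3.01) and Fcrl5 (2.56), and 1 lower, Pirb (-1.20). Of the receptor and its positive coreceptor genes, 0 of 6 were higher and 2 lower. Cd79b (-2.46) and Cd79a (-1.06), the chains that Lyn phosphorylates, were the 2, of which Cd79b alone was lower after the length fit was removed (Cd79a at -0.35) or under total reads.

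Adaptors and exchange factors had 7 of 20 genes higher (35%) and 3 lower (15%), shares near those of all genes, and 4 and 2 after the length fit was removed. Crkl, an adaptor gene whose protein binds phosphorylated Cbl, had 3754 reads in the mutant-labelled library and 73 in the wild-type-labelled library, a 25.1-fold higher value (19.9 to 32.1), and its paralog Crk stood at 1.68. Dok3, an inhibitory adaptor, was at -1.90. PI3 kinase and Akt genes had 8 of 12 higher and 0 lower, among them Pdpk1 (3.85) and the regulatory subunit gene Pik3r1 (2.34). These 12 genes have a median length of 6522.5 bases, and 4 were higher after the length fit was removed. Phospholipase C and downstream effectors had 8 of 18 higher (44.4%) and 1 lower (5.56%), or 5 and 3 after the length fit was removed. Sos1 (2.42), Rasgrp3 (2.34) and the calcium release channel gene Itpr1 (2.15) were at the top. Itpr1, of 9848 bases, stood at 0.80 with the length fit removed.

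**Figure D5:**
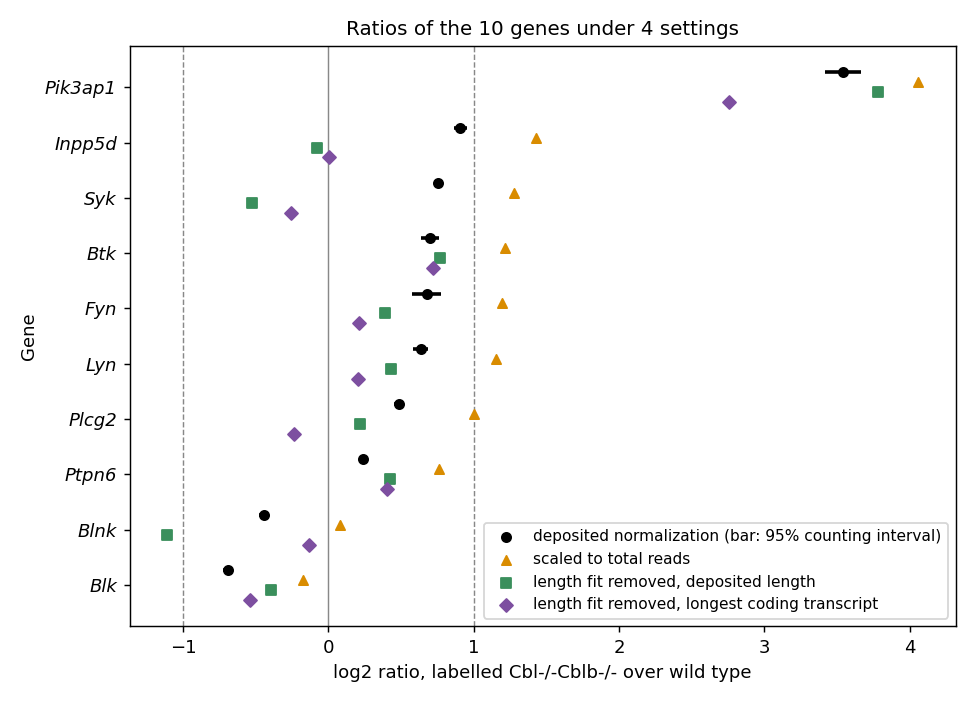
For each gene the horizontal axis gives the log2 ratio of the mutant-labelled library over the wild-type-labelled library, with circles for the deposited normalization and bars for its 95% counting interval, triangles for scaling to total reads, squares for the length fit on deposited length and diamonds for the fit on longest coding transcripts. Dashed lines mark 2-fold. Pik3ap1 lies between 2.76 and 4.06 in the 4 settings, and Syk lies at 0.76, 1.28, -0.52 and -0.26.

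In the GRCm38 annotation the other 8 genes lie on 8 chromosomes. Lyn spans 3678115 to 3813122 on chromosome 4, Blk 63372836 to 63417037 on chromosome 14 and Fyn 39368855 to 39565381 on chromosome 10. Syk spans 52583173 to 52648792 on chromosome 13, Btk 134542336 to 134583570 on chromosome X and Plcg2 117498291 to 117635142 on chromosome 8. Ptpn6 spans 124720707 to 124738714 on chromosome 6 and Inpp5d 87620312 to 87720507 on chromosome 1. Exons of the noncoding gene Gm26857 overlap Lyn by 248 bases and exons of Gm20531 overlap Ptpn6 by 195 bases. Whether counting used strand is not stated, so reads in these stretches cannot be told apart. Gm26857 had 24 reads in the mutant-labelled library and 9 in the wild-type-labelled library. Gm20531 had 9 in the mutant-labelled library and 6 in the wild-type-labelled library. These counts are far below those of Lyn and Ptpn6, but they do not show how many reads fell in the shared bases.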

How the data were processed

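RNA from sorted germinal centre B cells was purified with a column kit and read from both ends for 50 bases after TruSeq preparation, per the labels' protocols. Tools credited in the submitters' processing notes are featureCounts, TopHat2 2.0.10 and DESeq2 1.4.5, with the build GRCm38. Neither annotation release nor strand setting was stated. The deposited table holds read counts normalized to library size, a signal per the file headers, and FPKM values by the authors. It also holds, per the file headers, the authors' log2 fold change, test score and p-values. All values (100%) were whole multiples of the smallest positive value of their library within 0.001 read, which recovered whole reads and size factors of 1.43 (Cbl-/-Cblb-/-) and 0.699 (wild type). An edgeR test on these reads has no residual degrees of freedom at 1 library per group, so it was not run.

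Log2 ratios are of normalized reads plus a pseudocount of 1, which understates differences of low genes, and a gene was counted as higher or lower from 2-fold. Fold intervals are exact conditional 95% intervals from recovered reads. Computation used Python 3.11.15, scipy 1.17.1, numpy 2.4.6 and pandas 2.3.3. The interval and the length fit were tested on simulated data. Transcript lengths came from GENCODE M21, which gave a coding transcript for 92.5% and an exon length for 99.5% of genes over the floor. Alternatives were other scalings, pseudocounts, floors and length fits. The fits on GENCODE lengths were chosen after seeing the data.

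The 10 genes and all lists were chosen with earlier results of these data known. Named genes beside the 10 were Cbl, Cblb, the Src family list, and up to 3 genes of each other list with the largest absolute ratio over the floor. Bank1, Lcp2, Ptpn11, Plcg1, Csk, Zap70, Gm26857, Gm20531 and the neighbours on chromosome 19 were added after their values were seen, as were the single marker genes. Some genes of these lists are not reported here.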

Additional observations from a re-analysis of the deposited data

How the results depend on the processing

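Pik3ap1 was the 1 gene at least 2-fold higher in the mutant-labelled library under the deposited normalization, centring on the median of all genes, pseudocounts of 0.1 and 10, a floor of 20, no floor and the 3 length fits. Scaling to total reads gave 7 such genes and a median log2 ratio of 1.17, and without immunoglobulin genes 6 and 1.17, Plcg2 being the gene that lies at the threshold (1.0 and 0.99). The median was 0.51 after centring, 0.30 with the length fit removed, 0.10 with the fit on longest coding transcripts and 0.51 with the fit on exon lengths of the newer annotation. The count at least 2-fold lower was 0 except for 1 gene, Blnk, with the fit on deposited length. Signs turned for Blnk under total reads with and without immunoglobulin genes (0.077 and 0.069), for Syk under the 3 length fits (-0.52, -0.26 on coding transcripts and -0.30 on exon lengths), for Inpp5d with the fit on deposited length (-0.076) and for Plcg2 with the fit on coding transcripts (-0.24). Btk stayed above 0 under the 3 length fits (0.77 on deposited length), as did Lyn (0.43), Fyn (0.39), Ptpn6 (0.42) and Pik3ap1 (3.78). The cause was not tested. The pseudocounts moved 0 of the 10 ratios beyond their counting intervals.

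As shares of normalized reads not divided by length, Blk made up 35.7% of the Src family in the mutant-labelled library and 52.4% in the wild-type-labelled library. In the mutant-labelled library Lyn made up 32.5%, Fyn 9.56% and Lck 17.0%, and in the wild-type-labelled library Lyn 19%, Fyn 5.44% and Lck 19.8%. No paired analysis was possible because each group holds 1 library, and for the same reason no replicate could be left out. Recovered reads per gene and library ran from 574 to 38108, and the lack of replicates, scaling and gene length add error that the counting intervals do not cover.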
